A study of Mus musculus with 12 samples.

Results

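The Myc gene and 43 other genes of ribosome biogenesis were followed across the 12 libraries of a neoantigen expression experiment in mouse colon carcinoma cells. The 44 genes were taken from a list of symbols covering nucleolar ribosome assembly and RNA polymerase I, and each was matched to a row of the count table by its Entrez ID. They were chosen with earlier results of these data known. All 44 were found among the 27179 IDs of the table, and all 44 passed the filter on low counts, which kept 12910 genes. The cells were MC38-idAdpgkG, a derivative of the MC38 line from C57BL/6 mice, which carries a stably transfected, doxycycline-inducible transgene. The transgene encodes Adpgk with the R304M change, a model neoantigen, fused to turboGFP, and the fusion protein can be degraded with the small molecule dTAG-13. Every group, the control included, received mouse interferon gamma (IFNg) at 20 ng/mL, so no group shows cells without it. Control cells had IFNg alone for 51 h. The doxycycline group had IFNg with 1 µg/mL doxycycline for 51 h. The dTAG-13 group had IFNg for 48 h and then 1 µM dTAG-13 for 3 h, without doxycycline. The fourth group received doxycycline and dTAG-13 together (the combination), that is IFNg and doxycycline for 48 h and then 1 µM dTAG-13 for 3 h. Each group was 1 biological sample sequenced as 3 technical replicates, so every test below measures the spread between libraries of the same sample. A treatment and the culture that received it therefore cannot be told apart.

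Ribosomes are built in the nucleolus. RNA polymerase I transcribes the precursor of the ribosomal RNAs, small nucleolar ribonucleoproteins (snoRNPs) modify it, and successive sets of assembly factors fold and cleave it into the small and the large subunit. The transcription factor Myc raises the expression of many of these genes, binding as a dimer with Max to E-box motifs such as CACGTG, and ribosome output is tied to growth in proliferating carcinoma cells.

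The CACGTG E-box was looked for in RefSeq promoter sequences of GRCm38.p6, from 250 bases before to 50 bases after each start, because Myc is known to bind it. The motif reads the same on both strands. A promoter sequence was at hand for 38 of the 44 genes (not for Myc, Rrs1, Fbl, Npm1, Bop1 and Rrp12), and 8 of the 38 (21.1%) held the motif, against 7.15% of the 32851 promoters in the table and 11.6% of the 9754 tested genes with a promoter. The 8 motifs are given with up to 12 bases on either side, 5′ to 3′ on the strand of the gene, with the E-box in capitals.
Mybbp1a: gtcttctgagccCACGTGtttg
Wdr43: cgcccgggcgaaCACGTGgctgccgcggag
Imp4: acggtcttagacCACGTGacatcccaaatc
Ltv1: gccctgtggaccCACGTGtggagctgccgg
Tsr1: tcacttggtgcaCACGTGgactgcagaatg
Pes1: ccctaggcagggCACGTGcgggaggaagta
Nop2: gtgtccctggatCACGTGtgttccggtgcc
Grwd1: gggccggagtcgCACGTGtgaaaccgga
These windows lie at chr11:72441355-72441376 (Mybbp1a, plus strand), chr17:71616220-71616249 (Wdr43, plus strand), chr1:34439696-34439725 (Imp4, plus strand), chr10:13193092-13193121 (Ltv1, minus strand), chr11:74898092-74898121 (Tsr1, plus strand), chr11:3963965-3963994 (Pes1, plus strand), chr6:125131811-125131840 (Nop2, plus strand), chr7:45830740-45830767 (Grwd1, minus strand). Only the motifs of Imp4 and Nop2 begin before the annotated start, by 121 and 60 bases. The median log2 fold change of doxycycline against control was -0.229 for the 8 genes with the motif and -0.205 for the 30 without it. A match describes the letters in the window and not a bound site.

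The libraries held 22165538 to 32809573 counted reads, and expression is given as the depth-normalised read count CPM, on library sizes after TMM scaling. The Adpgk gene, which also counts reads of the transgene, rose from 161 ± 2.49 CPM (SD, n = 3) in control to 1338 ± 20.1 CPM with doxycycline, and was at 1369 ± 15.7 CPM with the combination and 181 ± 4.18 CPM with dTAG-13. None of 7 colon epithelial markers reached 1 CPM in any library, and Epcam and Cdx2 were at 0, although the labelled tissue is colon. Of 4 mesenchymal markers 2 reached 1 CPM, Vim and Pdgfrb. The summed level of the 4, nearly all Vim, was 1490 to 1530 CPM in control, 1290 to 1310 with doxycycline, 1200 to 1210 with dTAG-13 and 1010 to 1050 with both. Pdgfrb did not follow it, with means of 5.28 CPM in control, 8.45 with doxycycline, 4.71 with dTAG-13 and 7.56 with both. Leukocyte markers summed to at most 1.47 CPM, with Cd3e at 0, and endothelial markers to at most 4.15 CPM. The part of these markers in the results below was not tested. CPM is a share of the RNA sequenced, so fewer cells with a transcript and less of it in each cell cannot be told apart.

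Myc (Entrez 17869, GRCm38 chr15:61985391-61990374, plus strand) was highest in the control. It stood at 471, 471 and 504 CPM in the control libraries, 376, 383 and 370.0 CPM with doxycycline, 355, 364 and 363 CPM with dTAG-13 and 344, 372 and 347 CPM with the combination. The 3 control libraries lay above the other 9, while the combination libraries overlapped those of both single treatments. With doxycycline Myc fell by 21.9%, a log2 fold change of -0.36 (standard error 0.028, adjusted p 1.19e-11), and with dTAG-13 the log2 fold change was -0.42 (standard error 0.028, adjusted p 3.84e-14) in edgeR's quasi-likelihood test. Adding dTAG-13 to doxycycline gave -0.09 (standard error 0.028, adjusted p 0.00763). Without replicate 1 of the combination this last value was -0.067 and not called. Between the combination and dTAG-13 alone the difference was -0.03 (standard error 0.028, adjusted p 0.592). The interaction, which is the doxycycline effect with dTAG-13 minus that without it, was 0.33 (standard error 0.039, adjusted p 2.23e-07).

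Most of the ribosome biogenesis genes were lower by a small amount in the culture with doxycycline for 51 h than in the control culture. Of the 44 genes, 39 fell and 0 rose in edgeR's quasi-likelihood test, while 18.7% of all tested genes were called lower and 14.8% higher. Nop10, Gnl3, Wdr75, Noc4l and Ltv1 were not called. The median log2 fold change was -0.212, a level 0.864 times the control, against -0.01 over all tested genes. The doxycycline libraries lay below all control libraries in 41 of the 44 genes, compared with 24.1% of all tested genes. No gene was higher at an unadjusted p under 0.05 or in DESeq2 either. Leaving out each library in turn gave 39 or 40 lower, the latter with Noc4l at -0.105 without control replicate 1.

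Both RNA polymerase I subunits fell. Polr1a, the largest subunit of the enzyme (GRCm38 chr6:71909053-71984935, plus strand), was at 172, 183 and 179.6 CPM in control and 155, 156 and 157 CPM with doxycycline, with no overlap between the groups. Its log2 fold change was -0.19 (standard error 0.028, adjusted p 6.33e-07). Polr1b, the second largest subunit, was at 131, 139 and 133 CPM in control and 116, 112 and 119 CPM with doxycycline, and changed by -0.21 (standard error 0.03, adjusted p 4.52e-07).

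The core proteins of the snoRNPs held the strongest decreases of the 44 genes. Fbl encodes fibrillarin, the methyltransferase of the box C/D particles (GRCm38 chr7:28169710-28179269, plus strand), and was at 108, 94.5 and 97.2 CPM in control and 65.7, 71.1 and 71.8 CPM with doxycycline. The groups did not overlap, although the control libraries spread widely, and the log2 fold change was -0.52 (standard error 0.087, adjusted p 0.00166). Gar1, a core protein of the box H/ACA particles that guide pseudouridylation (GRCm38 chr3:129824912-129831396, minus strand), read 170.2, 152 and 147 CPM in control against 112, 115 and 115 CPM, without overlap, a log2 fold change of -0.46 (standard error 0.058, adjusted p 0.000113). The remaining box C/D proteins fell less, Nop58 by 0.26 on the log2 scale and Nop56 by 0.09. Nop56 read 307, 305 and 314 CPM in control and 292, 293 and 286 CPM with doxycycline, just below control in every library, and was not called when libraries were scaled by size alone. Among the H/ACA proteins, the pseudouridine synthase Dkc1 fell by 0.22 and Nhp2 by 0.24 on the log2 scale. Nop10, the smallest H/ACA protein, overlapped between the groups, with 76.7, 74.3 and 79.8 CPM in control and 72.9, 82.8 and 75.2 CPM with doxycycline.

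**Figure D1:**
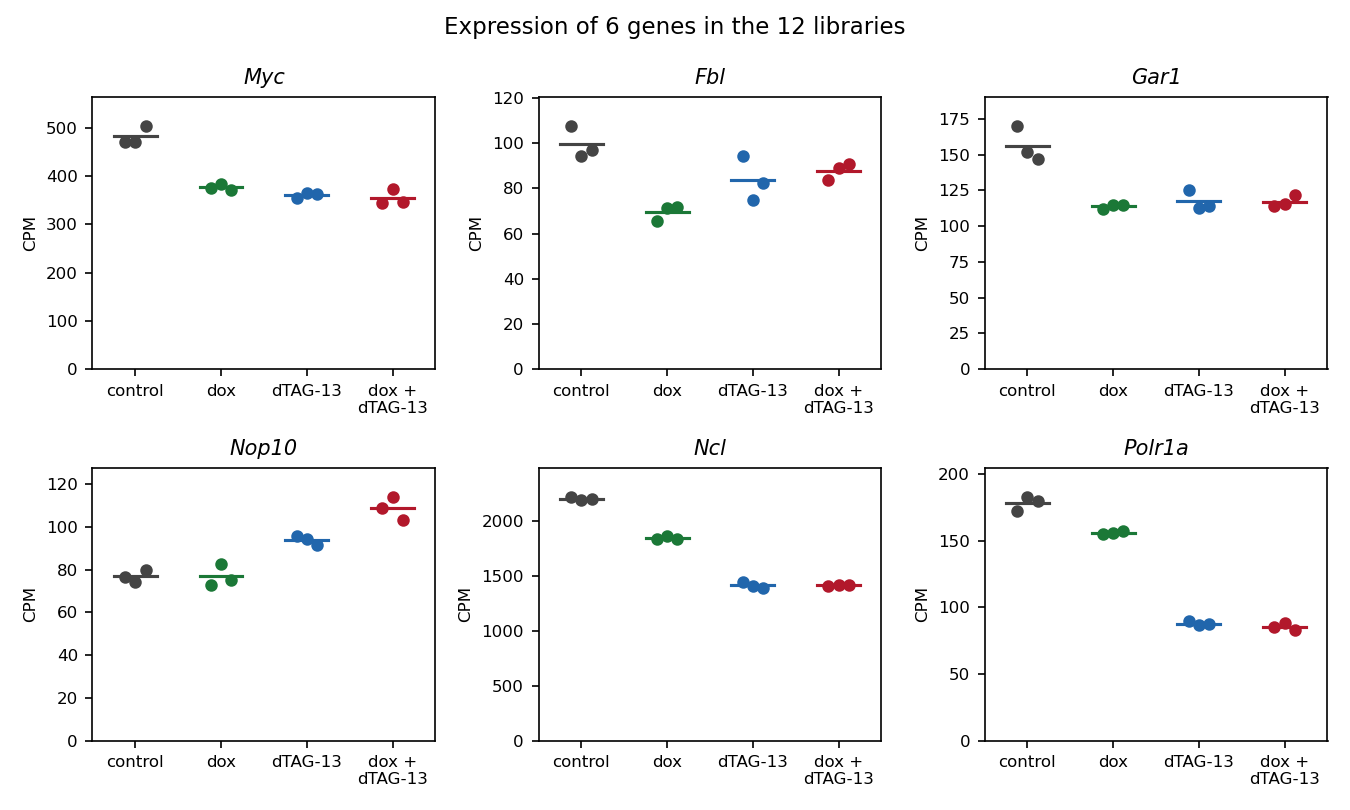
Normalised read count (CPM, linear axis from 0) of Myc, Fbl, Gar1, Nop10, Ncl and Polr1a in each of the 12 libraries. Points are libraries and horizontal lines are group means (n = 3 technical replicates of 1 sample). Control libraries are the highest in every panel but that of Nop10, and Ncl and Polr1a show a further step down in both dTAG-13 groups.

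Of the 6 abundant nucleolar proteins, 5 fell with doxycycline. Ncl encodes nucleolin, which binds the ribosomal RNA precursor, and had the highest counts of the 44 genes, with 2224, 2195 and 2201 CPM in control and 1844, 1868 and 1842 CPM with doxycycline. That is a log2 fold change of -0.25 (standard error 0.017, adjusted p 2.52e-15). The RNA helicase Ddx21 changed most in this group, from 904, 903 and 893 CPM in control to 735, 725 and 737 CPM, without overlap and with a log2 fold change of -0.30 (standard error 0.019, adjusted p 2.96e-16). Npm1, the nucleolar chaperone nucleophosmin, fell by 0.21, Nolc1, a chaperone of snoRNPs, by 0.18 and Mybbp1a, a nucleolar Myb-binding protein, by 0.17 on the log2 scale. Npm1 has processed pseudogenes, and how reads of near-identical copies were counted is not given in the sources used here. Gnl3, the nucleolar GTPase nucleostemin, was at 143, 143 and 141 CPM in control and 142, 147 and 146 CPM with doxycycline, overlapping.

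Small subunit assembly factors fell in 10 of 13 cases, with log2 fold changes from -0.379 to -0.062 over the 13. Rrp9, the U3 snoRNP protein needed for early cleavage of the precursor, changed most, from 147, 146 and 137 CPM in control to 109.6, 113 and 108 CPM with doxycycline, a log2 fold change of -0.38 (standard error 0.03, adjusted p 1.76e-13) with no overlap. Wdr75, a subunit of the UTP-A complex, was closest to control, at 133, 134 and 138 CPM against 127, 130.4 and 131 CPM. Its libraries did not overlap but it was not called. The late factors Tsr1, Bysl and Nob1, the last of which is the endonuclease that finishes the small subunit RNA, fell by 0.26, 0.22 and 0.18 on the log2 scale. Tsr1 shares 1240 exonic bases with Srr and Bysl 361 with Ccnd3, both on the opposite strand, and the strand setting of the counting is not given in the sources used here. Of the 44 genes, 13 have such an overlap with a counted gene.

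Every large subunit factor fell. The PeBoW complex, which is needed for processing of the large subunit RNA, fell in all 3 members, with log2 fold changes of -0.21 for Pes1, -0.20 for Wdr12 and -0.19 for Bop1. Pes1 read 203, 206 and 200.4 CPM in control and 177, 176 and 174 CPM with doxycycline, and Bop1 149, 146 and 148 CPM and 132, 125 and 131 CPM, each without overlap. The other 12 factors lay between -0.352 and -0.184. Grwd1, a histone-binding ribosome assembly protein, had the largest change, from 87.7, 88.7 and 87.7 CPM to 68.8, 67.2 and 70.9 CPM, a log2 fold change of -0.35 (standard error 0.034, adjusted p 6.57e-11). Rrs1, which is needed to recruit the smallest ribosomal RNA to the precursor particle, followed with 188, 195 and 192 CPM in control and 152, 152 and 155 CPM with doxycycline, a log2 fold change of -0.33 (standard error 0.026, adjusted p 1.82e-13). At the other end, Rrp1b, a nucleolar regulator of chromatin and processing, went from 79.0, 74.8 and 76.6 CPM to 68.2, 65.0 and 69.6 CPM, a log2 fold change of -0.18 (standard error 0.039, adjusted p 0.00022).

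With dTAG-13 present, most of the 44 genes differed little between the cultures with and without doxycycline. Against dTAG-13 alone, the combination had 7 genes higher (Nop56, Nhp2, Nop10, Gnl3, Rrp12, Mrto4 and Nip7), 5 lower (Polr1b, Heatr1, Imp4, Tsr1 and Noc3l) and 32 not called in edgeR's quasi-likelihood test, while 10.7% of all tested genes were called higher and 9.64% lower. The median log2 fold change was 0.004, against -0.001 over all tested genes, and the values ran from -0.153 (Tsr1) to 0.209 (Nop10). Libraries did not overlap for 13 genes that were higher and 7 that were lower. The shares of all tested genes without overlap are not given for this comparison. Scaled by library size alone, 3 genes were higher and 6 lower, against 7.17% and 16.5% of all tested genes. After the length and GC correction described below, 6 were higher and 1 lower, against 10.3% and 7.51%. DESeq2 called 1 gene lower. Leaving out 1 library gave between 4 and 8 higher and between 1 and 5 lower, with 1 lower without dTAG-13 replicate 1 or 3, 2 without combination replicate 1 or 3, and 4 higher without combination replicate 3 or dTAG-13 replicate 2. Nop56, Nop10 and Tsr1 kept their calls in each of these fits. The widest differences were those of Nop10, at 109, 114 and 103 CPM with both agents and 95.8, 94.3 and 91.6 CPM with dTAG-13, and Tsr1, at 116, 117 and 119 CPM and 132, 134 and 125 CPM. Of the genes that fell most with doxycycline alone, Fbl was at 83.8, 89.0 and 90.9 CPM with both agents and 94.1, 74.7 and 82.4 CPM with dTAG-13, and Gar1 at 114, 115 and 122 CPM and 126, 113 and 114 CPM, both overlapping.

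The interaction was positive in all 44 genes and called in 39, with 0 called negative (0 also at an unadjusted p under 0.05 and in DESeq2), compared with 13.2% of all tested genes called positive and 9.64% negative. Its median was 0.214 on the log2 scale, against 0.005 over all tested genes, and it was largest for Fbl at 0.59 (standard error 0.12, adjusted p 0.00915) and Gar1 at 0.45 (standard error 0.083, adjusted p 0.00279). Polr1b, Gnl3, Noc4l, Tsr1 and Noc3l were not called. Scaling by library size alone lowered the count to 27, against 6.34% of all tested genes. The interaction uses the same control and doxycycline libraries as the comparison of doxycycline with control, so it is not independent of it.

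**Figure D2:**
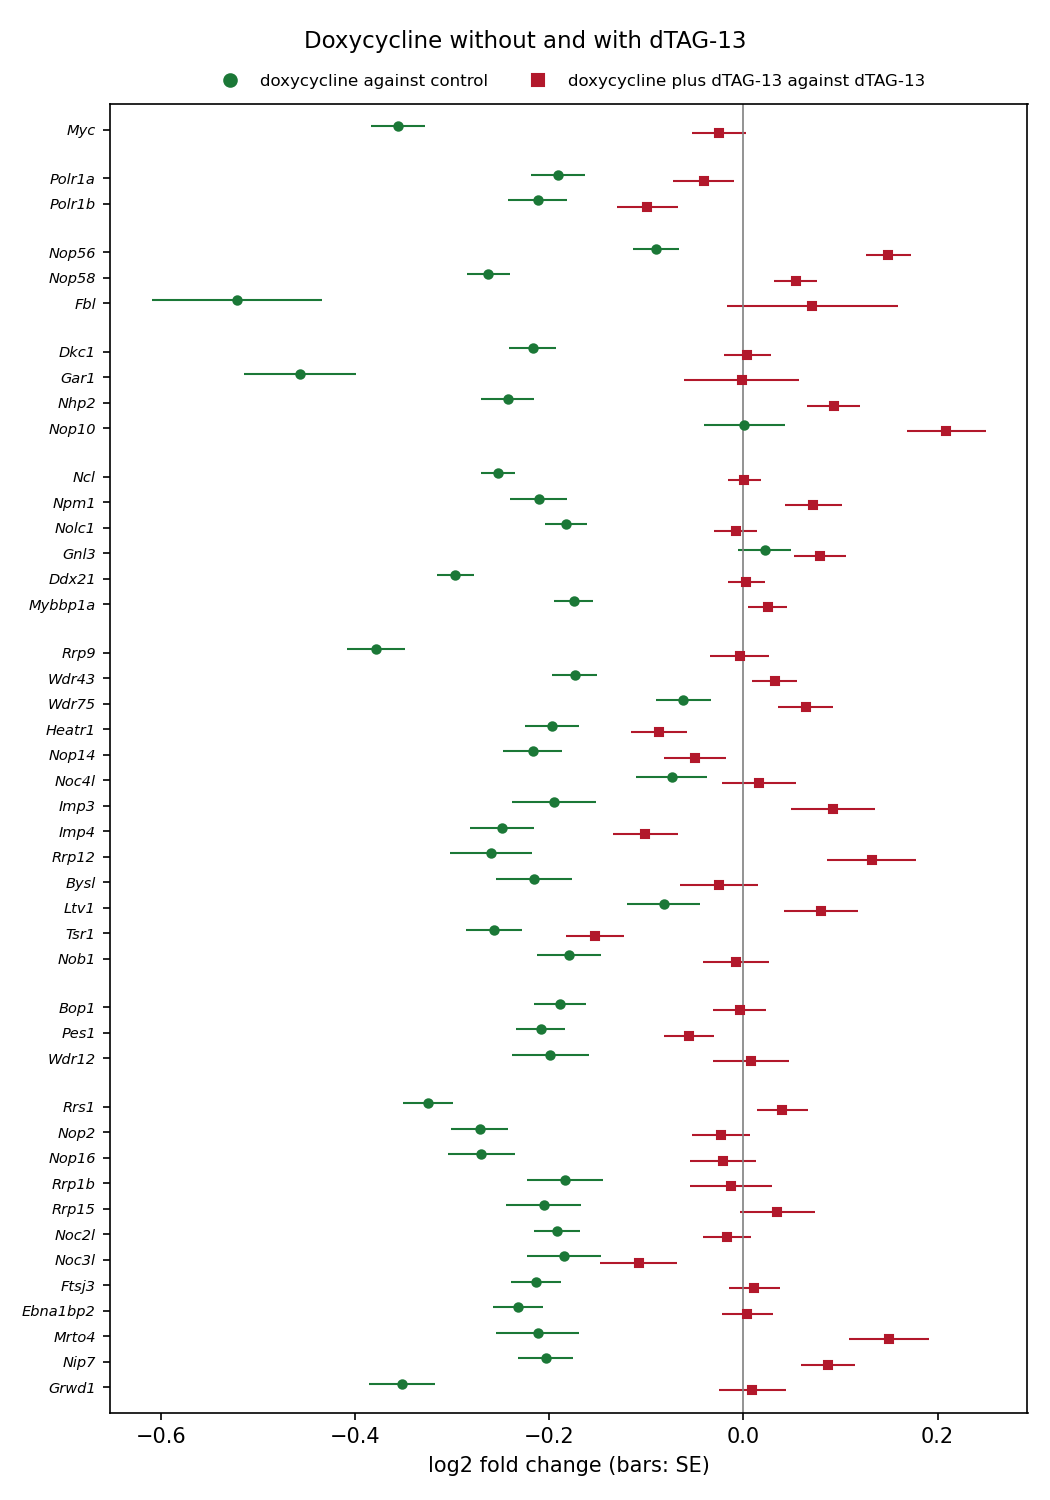
Log2 fold change of each of the 44 genes for doxycycline against control (circles) and for the combination against dTAG-13 (squares), with bars of 1 standard error, grouped by role. Circles lie left of 0 for 42 genes, down to -0.522 for Fbl, while the squares lie between -0.153 and 0.209.

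Most of the genes were also lower, but unevenly, in the culture with dTAG-13 for 3 h and no doxycycline than in the control culture. Of the 44, 30 fell, 6 rose and 8 were not called, while 32.1% of all tested genes were called lower and 30.0% higher. The median log2 fold change was -0.176, against 0.019 over all tested genes, and the values ran from -1.02 (Polr1a) to 0.34 (Gnl3). Libraries did not overlap for 31 genes that were lower and 5 that were higher, against 33.3% and 32.2% of all tested genes. Scaled by library size alone, 22 genes fell and 11 rose, against 24.1% of all tested genes lower and 40.7% higher under that scaling. This comparison shares the control libraries with that of doxycycline against control.

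The decreases were led by Polr1a, which was at 89.7, 86.6 and 87.3 CPM with dTAG-13 and so fell below the 3 control libraries and the 3 doxycycline libraries given above, a log2 fold change of -1.02 (standard error 0.029, adjusted p 1.02e-28). Polr1b read 108, 105 and 106 CPM, a log2 fold change of -0.34 (standard error 0.031, adjusted p 1.52e-12). Of the 6 abundant nucleolar proteins, 5 fell and Gnl3 rose. Ddx21 fell to 552, 549 and 546 CPM (-0.71 (standard error 0.019, adjusted p 1.1e-29)) and Ncl to 1447, 1408 and 1393 CPM (-0.64 (standard error 0.017, adjusted p 1.81e-29)). Nolc1 fell by 0.56, Mybbp1a by 0.42 and Npm1 by 0.12 on the log2 scale. Rrp12, a factor in export and maturation of both subunits, was at 63.5, 59.4 and 60.8 CPM in control and 39.5, 37.2 and 41.9 CPM with dTAG-13, a log2 fold change of -0.63 (standard error 0.043, adjusted p 3.1e-16). Rrp1b went to 55.4, 55.1 and 50.2 CPM, a log2 fold change of -0.52 (standard error 0.04, adjusted p 8.96e-15).

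The genes that rose with dTAG-13 were Gnl3, Nip7, Nop10, Nop56, Nop16 and Nhp2. After a correction of each library for transcript length and GC content, described below, Nop10 was at 0.023 (adjusted p 0.675) and Nop16 at -0.012 (adjusted p 0.771), and Nhp2 was called lower at -0.063 (adjusted p 0.0243), while Gnl3, Nip7 and Nop56 were still called higher. Gnl3 was at 182, 181 and 176 CPM with dTAG-13, above every control library, a log2 fold change of 0.34 (standard error 0.027, adjusted p 3.66e-14). Nip7, a factor in large subunit RNA processing, was at 128, 129.6 and 123 CPM in control, 110.0, 111 and 109.6 CPM with doxycycline and 157, 157 and 161 CPM with dTAG-13. Its log2 fold change with dTAG-13 was 0.32 (standard error 0.028, adjusted p 5.57e-13). Nop56 read 364, 353 and 345 CPM and Nop10 95.8, 94.3 and 91.6 CPM with dTAG-13, both above control, with log2 fold changes of 0.20 and 0.29. The calls of Nop16 (0.09) and Nhp2 (0.08) were lost without control replicate 3 or dTAG-13 replicate 1, where Nop16 was at 0.05 and 0.082 and Nhp2 at 0.031 and 0.057, and Nop16 also without dTAG-13 replicate 3, at 0.081. Fbl, at 94.1, 74.7 and 82.4 CPM, had a log2 fold change of -0.25 that was not called without control replicate 1 (-0.2) or dTAG-13 replicate 3 (-0.249).

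Where dTAG-13 was added to doxycycline, more of the genes were higher than lower, compared with the culture with doxycycline alone. Of the 44, 23 rose, 17 fell and 4 (Gar1, Nob1, Pes1 and Nop2) were not called, while 30.7% of all tested genes were called higher and 33.4% lower. The median log2 fold change was 0.073, against 0.003 over all tested genes. The 3 box C/D proteins rose, with log2 fold changes of 0.44 for Nop56, 0.34 for Fbl and 0.31 for Nop58. After a correction of each library for transcript length and GC content, described below, only Nop56 of the 3 was still called higher, while Fbl was at 0.162 (adjusted p 0.105) and Nop58 at -0.001 (adjusted p 0.962). Nip7 rose most, to 163, 167 and 173 CPM, a log2 fold change of 0.61 (standard error 0.029, adjusted p 1.95e-21). Polr1a fell most, to 85.2, 87.9 and 83.2 CPM, a log2 fold change of -0.87 (standard error 0.03, adjusted p 1.04e-25), followed by Ddx21 at 555, 547 and 549 CPM (-0.41) and Ncl at 1408, 1419 and 1424 CPM (-0.39). Some small changes rested on single libraries. Bop1 (0.048) and Rrs1 (0.066) were not called without doxycycline replicate 2. Noc3l was not called without doxycycline replicate 3 (-0.085) or combination replicate 3 (-0.078). Bysl was not called without doxycycline replicate 2 or combination replicate 2 or 3 (-0.097 to -0.081), nor Ltv1 without doxycycline replicate 1 or 3 or combination replicate 2 (0.07 to 0.096). Ebna1bp2 lost its call without any of 9 libraries (0.046 to 0.059).

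The 2 dTAG-13 comparisons share no library and ordered the 44 genes alike. Across the genes, which are not independent replicates, the log2 fold changes had a Pearson correlation of 0.933 and a Spearman correlation of 0.911, against 0.676 and 0.736 over all 12910 tested genes. The tested genes include ones with low counts, and transcript length moved with both comparisons, as described below. The part of either in the difference between these correlations was not tested. In all 44 genes the value with doxycycline lay above the value without it, by a median of 0.214, which is the interaction given above. The sign was the same in both for 28 of the 44 (63.6%), against 81.2% of all tested genes. The 2 doxycycline comparisons, which also share no library, had a Pearson correlation of 0.266 and a Spearman correlation of 0.204 across the 44 genes, against 0.365 and 0.151 over all tested genes, with 21 (47.7%) of the same sign, against 55.6%.

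**Figure D3:**
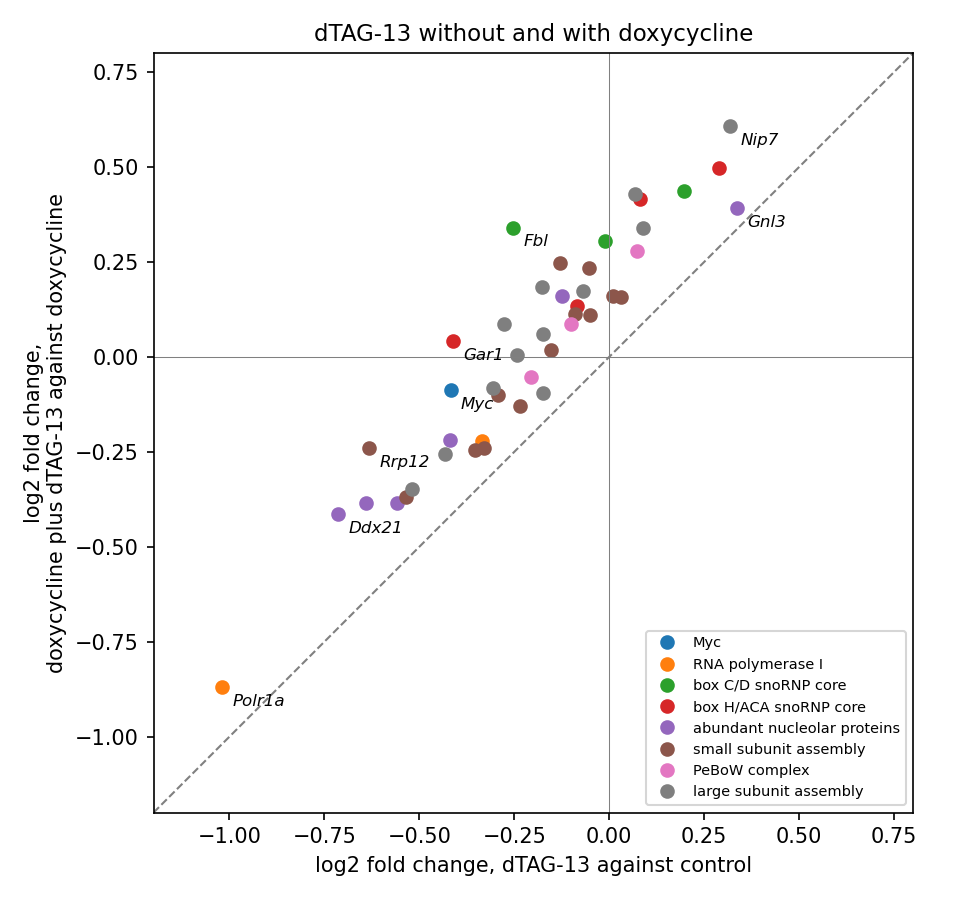
Log2 fold change of the 44 genes for dTAG-13 against control (x axis) and for the combination against doxycycline (y axis), coloured by role, with the line of equal values dashed. All 44 points lie above the line, by a median of 0.214, and Polr1a stands lowest on both axes.

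Seen by level, the control was the group in which these genes were highest. All 3 control libraries lay above the other 9 libraries in 29 of the 44 genes, compared with 12.5% of all tested genes, among them Myc, Polr1a, Polr1b, Fbl, Gar1, Dkc1, Ncl, Npm1 and Ddx21. The control mean was the highest of the 4 group means in 31 genes (70.5%, against 27.3% of all tested genes), the combination mean in 11, the dTAG-13 mean in 2 and the doxycycline mean in 0. The doxycycline mean was the lowest in 24 genes (54.5%, against 26.6% of all tested genes). The control was 1 sample, so a control that stood apart and a lowering in the 3 treated samples cannot be told apart.

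Transcript length moved with the dTAG-13 values and with the interaction. Across the 44 genes, log2 fold change had a Spearman correlation with transcript length of -0.456 for dTAG-13 against control and -0.628 for the combination against doxycycline, close to the -0.438 and -0.583 over all 12446 tested genes with a length. For doxycycline against control the values were 0.149 and 0.117. They were -0.483 and -0.245 for the combination against dTAG-13, and -0.479 and -0.274 for the interaction. For the combination against doxycycline, the 22 shorter transcripts (924 to 2702 bases) had 16 rises and 3 falls, and the 22 longer ones (2785 to 10012 bases) had 7 rises and 14 falls. Of all tested genes with transcripts of at most 2702 bases, 48.7% rose and 12.2% fell. Of those with at least 2785 bases, 15.4% rose and 53.5% fell. The 44 transcripts had a median length of 2743.5 bases, against 2906 over all tested genes, and a median GC content of 50.6% against 50%. After each library was corrected for length and GC content, 41 of the genes fell with doxycycline, against 19.5% of all tested genes. The interaction was called positive in 39, and its share of all tested genes under this correction is not given. Polr1a was at -0.62 and -0.41 in the 2 dTAG-13 comparisons, Ncl at -0.46 and -0.13, Ddx21 at -0.61 and -0.25, and Nip7 at 0.23 and 0.55. Myc, on a model of 1365 bases, was at -0.46 and -0.20, both called. The corrected Ncl values rest on a model of 8202 bases, which may not be the expressed isoform. The correction gave 5 higher and 36 lower for dTAG-13 against control, against 24.1% and 29.5% of all tested genes. Among the 5, Imp4 (0.229) and Wdr12 (0.228) were called only after the correction, from 0.011 and 0.072 in the main fit. The Wdr12 value rests on a model of 10012 bases, while its shortest model has 2850. For the combination against doxycycline the correction gave 16 higher and 11 lower, against 24.3% and 27.3%. Npm1 turned from 0.16 to -0.177 in the second of these, and was called in both fits. Whether length itself or something that goes with it moves these values was not tested.

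**Figure D4:**
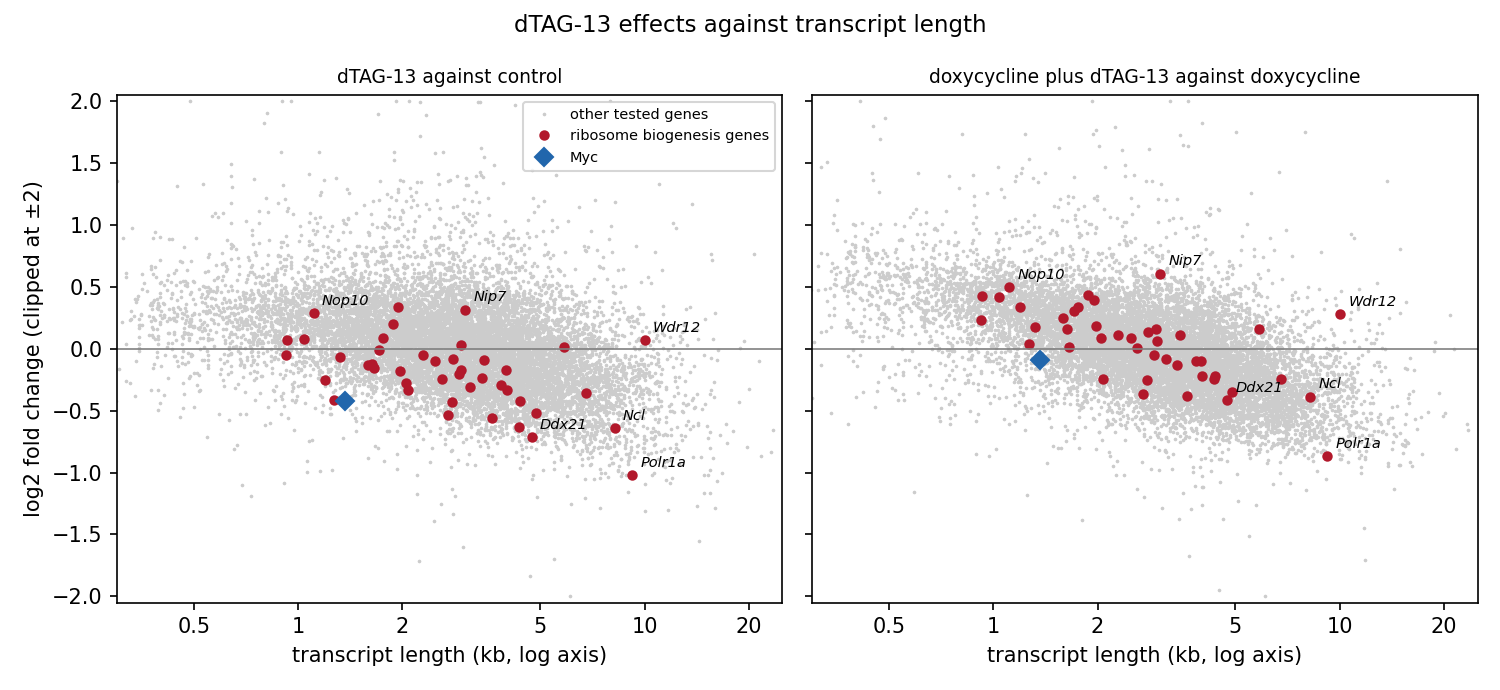
Log2 fold change against transcript length (kb, log axis) for dTAG-13 against control (left) and the combination against doxycycline (right), with all tested genes in grey (values clipped at 2 in either direction), the 43 ribosome biogenesis genes as red circles and Myc as a blue diamond. Values fall with length in both panels, for the 44 genes (Spearman correlations -0.456 and -0.628) as for all genes.

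The wider pathway moved in the same direction with doxycycline. Of 124 other tested genes of ribosome assembly (polymerase I subunits and factors, small and large subunit factors, snoRNP assembly factors, the RNA exosome, and the proteins of RNase MRP and RNase P), 84 (67.7%) fell and 0 rose (0 also at an unadjusted p under 0.05 and in DESeq2), against 18.7% of all tested genes lower and 14.8% higher, with a median log2 fold change of -0.134 against -0.01. The small subunit list had 33 of 40 lower, the large subunit list 29 of 43, the snoRNP assembly list 6 of 9, the polymerase I list 6 of 13, RNase MRP and P 5 of 8 and the exosome 5 of 11. Znhit6, a box C/D assembly factor, had a log2 fold change of -0.41 (standard error 0.041, adjusted p 9.76e-11), Nle1, a large subunit factor, -0.31 (standard error 0.049, adjusted p 3.81e-06) and Pdcd11, a small subunit factor, -0.30 (standard error 0.028, adjusted p 1.32e-11). The interaction was called positive in 74 of the 124 (59.7%, against 13.2% of all tested genes) and negative in 0. None was negative at an unadjusted p under 0.05 or in DESeq2. Scaled by library size alone, 36 were positive, against 6.34% of all tested genes.

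With dTAG-13 the same 124 genes had 58 lower (46.8%, against 32.1% of all tested genes) and 34 higher (27.4%, against 30.0%), with a median of -0.06. When it was added to doxycycline, 30 were lower (24.2%, against 33.4%) and 66 higher (53.2%, against 30.7%), with a median of 0.093. After the length and GC correction, 11 were higher with dTAG-13, against 24.1% of all tested genes. For dTAG-13 added to doxycycline, the Spearman correlation with length was -0.583 over all tested genes with a length. Corrected counts of the 124 genes are not given there, so the part of length in the 66 rises was not tested. In that comparison the correction removed the calls of Exosc7 (0.049) and Exosc3 (0.022), which had risen, and of Mdn1 (-0.033), which had fallen. Rpp14, which had risen, turned to -0.099. The largest decreases included Utp20, a scaffold of the small subunit precursor, at -1.02 with dTAG-13 and -0.84 when added to doxycycline, Nol6 at -0.89 and -0.61, and Urb1 at -0.80 and -0.62. Taf1d, a subunit of the polymerase I selectivity factor, rose by 0.48 and 0.68 on the log2 scale, the first of which was 0.068 and not called after that correction. Between the combination and dTAG-13 alone, 12 were higher (9.68%, near the 10.7% of all tested genes) and 4 lower (3.23%, against 9.64%), the latter being Naf1, Wdr3, Utp4 and Tex10, of which Utp4 and Tex10 were named after their values were seen. Of the 4, 1 was called lower without dTAG-13 replicate 3 and 2 without dTAG-13 replicate 1 or 2 or combination replicate 1.

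Of 20 genes commonly counted as Myc targets outside ribosome assembly, 14 fell and 0 rose with doxycycline (0 also at an unadjusted p under 0.05 and in DESeq2), against 18.7% of all tested genes lower, with a median log2 fold change of -0.186. This list was also chosen with earlier results of these data known. Tfrc, the transferrin receptor, went from 187 ± 2.76 CPM to 153 ± 2.3 CPM (SD, n = 3), a log2 fold change of -0.29 (standard error 0.026, adjusted p 1.01e-11). Cad, the enzyme that starts pyrimidine synthesis, changed by -0.18 with doxycycline and -1.05 with dTAG-13, both on the log2 scale. Odc1, the ornithine decarboxylase of polyamine synthesis, was not called with doxycycline (0.03) and rose with dTAG-13 (0.21). The interaction was called positive in 14 of the 20 and negative in 1, Ccnd2, named after its value was seen, at -0.099, against 13.2% and 9.64% of all tested genes. DESeq2 called none of the 20 negative. Of 11 tested members of the Myc network itself, its partners and antagonists, 2 (18.2%) rose and 1 (9.09%) fell with doxycycline, near or below the 14.8% and 18.7% of all tested genes. Those that rose were the Max-binding antagonists Mxi1, from 146 ± 7.21 CPM to 168 ± 5.23 CPM with a log2 fold change of 0.20 (standard error 0.03, adjusted p 1.41e-06), and Mxd4, at 2.59 ± 0.640 CPM in control and 3.66 ± 0.141 CPM with doxycycline. The 1 that fell was Max, the dimer partner of Myc, named after its value was seen, at -0.162. The call of Mxd4 was lost without control replicate 3, at 0.328. Mnt, another antagonist, was not called with doxycycline (0.06) and fell by 0.74 on the log2 scale when dTAG-13 was added to it.

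Per kilobase of transcript, the control level was highest for Npm1, at 422 ± 12 CPM per kb (SD, n = 3), followed by Myc at 353 ± 14.0, Nhp2 at 323 ± 17.5 and Ncl at 269 ± 1.88 CPM per kb. The order depends on the annotated model, since the longest model of Myc (2338 bases, not 1365) would give 206 CPM per kb. The place of Ncl rests on a model of 8202 bases, which may not be the expressed isoform. The lowest levels were those of Rrp12 at 14.1 ± 0.472 and Wdr12 at 7.66 ± 0.278 CPM per kb, the latter on a model of 10012 bases whose alternatives are shorter. Introns of 7 of the genes host 21 annotated snoRNAs (Nop56 with 5, Nop58 with 4, Ncl, Gnl3 and Wdr43 with 3 each, Tsr1 with 2 and Dkc1 with 1), which were not analysed here. Of these 7 hosts, Gnl3 was the only one not called with doxycycline.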

How the data were processed

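RNA from 12 libraries was made into poly(A) libraries (NEBNext Ultra II kit), per the labels' protocols. The authors deposited raw counts per Entrez gene ID in 1 table, not normalised. Reads were demultiplexed with bcl2fastq 2.17 and counted with featureCounts on mm10, per the submitters' processing notes, and aligned with Subread, per the file headers. For the gene annotation, the strand setting and reads with several matches, the settings were not given in the sources used here.

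Symbols came from RefSeq (GRCm38.p6) and GENCODE M21 by Entrez ID (25293 of 27179 IDs). IDs without a symbol held 2.097% of reads and stayed in the tests. Genes were filtered with filterByExpr by group in edgeR 4.0.16 (R 4.3.3), scaled by TMM (factors 0.9647 to 1.0349) and fitted with 1 mean per group over all 12 libraries, with 8 residual degrees of freedom. Contrasts used the two-sided quasi-likelihood F test (robust) with Benjamini-Hochberg adjustment over 12910 genes, and called under 0.05. "Rose" and "fell" mean called. "No overlap" means that every library of 1 group lay above every library of the other, in CPM. Standard errors follow from the log2 fold change divided by the root of F.

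Transcript length and GC content are those of the longest principal (otherwise basic) GENCODE M21 model. Overlaps and snoRNAs come from the same annotation. Alternatives were RLE size factors, library size only, DESeq2 1.42.0, no filter, 1 CPM in 3 libraries, only the groups compared, a replicate block, a spline correction for length and GC (5 degrees of freedom), and each library left out. These settings were added after seeing the data for the counts over the wider lists and for the genes named from them. In simulated data for dTAG-13 against control (12796 genes), 67.2% of genes changed by 0.25, 91% by 0.5 and 100% by 1 (log2) were called. Only 67, 67 and 66 genes were changed, and 9 unchanged genes were called. The simulated spread was that between technical replicates, so these rates do not cover differences between cultures. Tables were made in Python 3.11.15 with pandas 2.3.3, numpy 2.4.6 and matplotlib 3.10.9.

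The 44 genes and the lists were chosen with earlier results of these data known. Named beside the 44 genes and Adpgk were, from each list and pairwise comparison, at most the 2 called genes with the largest change and a mean of at least 1 CPM. The exceptions from the lists were Utp4, Tex10, Ccnd2 and Max, named after their values were seen.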

Additional observations from a re-analysis of the deposited data

Results flagged for a closer look

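In 39 of the 44 genes the doxycycline effect differed between cells without and with dTAG-13 by a called interaction term in edgeR's quasi-likelihood test. Of all tested genes, 13.2% were called positive and 9.64% negative. The values below are log2 differences, the doxycycline effect with dTAG-13 minus that without it. For Myc itself the difference was 0.33. In RNA polymerase I the difference was 0.15 for Polr1a. In the box C/D proteins the difference was 0.59 for Fbl, 0.32 for Nop58 and 0.24 for Nop56. In the box H/ACA proteins the difference was 0.45 for Gar1, 0.34 for Nhp2, 0.22 for Dkc1 and 0.21 for Nop10. In the abundant nucleolar proteins the difference was 0.3 for Ddx21, 0.28 for Npm1, 0.25 for Ncl, 0.2 for Mybbp1a and 0.17 for Nolc1. In the small subunit factors the difference was 0.39 for Rrp12, 0.38 for Rrp9, 0.29 for Imp3, 0.21 for Wdr43, 0.19 for Bysl, 0.17 for Nob1, 0.17 for Nop14, 0.16 for Ltv1, 0.15 for Imp4, 0.13 for Wdr75 and 0.11 for Heatr1. In the PeBoW complex the difference was 0.21 for Wdr12, 0.18 for Bop1 and 0.15 for Pes1. In the large subunit factors the difference was 0.36 for Rrs1, 0.36 for Mrto4, 0.36 for Grwd1, 0.29 for Nip7, 0.25 for Nop2, 0.25 for Nop16, 0.24 for Rrp15, 0.24 for Ebna1bp2, 0.23 for Ftsj3, 0.17 for Noc2l and 0.17 for Rrp1b. Every one is positive, and each rests on the same 4 cultures. The calls of Heatr1 (0.081 to 0.101), Rrp1b (0.133 to 0.17), Ltv1 (0.122 to 0.154), Wdr75 (0.105 to 0.112), Imp4 (0.12 to 0.136) and Nob1 (0.133) were lost when certain single libraries were left out, at the values in brackets. Scaled by library size alone, the same genes were not called. Under that scaling Polr1a (0.079), Nop10 (0.137), Nop14 (0.096), Bysl (0.12), Pes1 (0.083) and Wdr12 (0.137) also lost their calls. After the length and GC correction, Nop10 (0.123) and Imp3 (0.155) were not called.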

How the results depend on the processing

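The count of 39 genes lower with doxycycline stayed between 38 and 41 under every setting tried, and the interaction, which has no setting with only the groups compared because it uses all 4, was called positive in 27 to 41 genes and negative in 0 under the others. Scaled by library size alone, the median log2 fold change was -0.176 for doxycycline against control, -0.084 for dTAG-13 against control with 11 genes higher, 0.094 for the combination against doxycycline, -0.031 for the combination against dTAG-13 with 3 higher, and 0.144 for the interaction. Under that scaling, with dTAG-13 against control, Nop58 was at 0.08, Dkc1 at 0.005 and Wdr43 at 0.0, and Imp3 (0.038), Ltv1 (0.04) and Rrp15 (0.024), uncalled in both fits, also lay above 0. After the length and GC correction, the median was -0.209 for dTAG-13 against control, 0.009 with 11 lower for the combination against doxycycline, and 0.018 with 1 lower for the combination against dTAG-13. That correction turned the sign for dTAG-13 against control of Nhp2 (-0.063), Wdr75 (-0.081), Nop16 (-0.012) and Mrto4 (-0.136). For the combination against doxycycline it turned Gar1 (-0.113, uncalled in both fits), Nop58 (-0.001), Npm1 (-0.177), Mybbp1a (0.014), Heatr1 (0.08), Imp3 (-0.035), Rrp12 (0.021), Bysl (0.077), Ltv1 (-0.028), Nob1 (-0.107), Rrp15 (-0.074) and, among other RNase MRP and P genes, Rpp14 (-0.099). For the combination against dTAG-13, DESeq2 called 1 gene lower and the fit with no filter 2. Where a count under another setting has no share of all tested genes, it shows only the move from the main fit.

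The replicate numbers did not pair the libraries, since the deviations of 18 same-number pairs correlated at -0.021 to 0.08 and 4 of 12 libraries were closest to their own number. With the replicate block, 39 genes were lower for doxycycline against control, 30 lower and 6 higher for dTAG-13 against control, 17 lower and 22 higher for the combination against doxycycline, 4 lower and 7 higher for the combination against dTAG-13, and 38 positive for the interaction. Shares of all tested genes under the block are not given, so these counts show only how far those of the main fit moved. With the replicate block and the length and GC correction together, the medians were -0.209, 0.009 and 0.018 for dTAG-13 against control, the combination against doxycycline and the combination against dTAG-13, 1 gene was lower for the combination against dTAG-13, Nhp2 was at -0.063, Wdr75 -0.082, Nop16 -0.012, Mrto4 -0.136, Nop58 -0.001, Npm1 -0.177, Mybbp1a 0.014, Heatr1 0.08, Imp3 -0.035, Rrp12 0.021, Bysl 0.078, Ltv1 -0.027, Nob1 -0.108, Rrp15 -0.075 and Rpp14 -0.097, and Gar1 was at -0.112 and called. The cause of these changes was not tested.

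With 1 library left out at a time, the median ranged from -0.219 to -0.196 for doxycycline against control, -0.193 to -0.171 for dTAG-13 against control, 0.051 to 0.072 for the combination against doxycycline, 0.002 to 0.019 for the combination against dTAG-13 and 0.205 to 0.227 for the interaction. Myc ranged from -0.377 to -0.327, -0.442 to -0.392, -0.125 to -0.067, -0.062 to -0.005 and 0.295 to 0.353 in the same order. Genes lower ranged over 39 to 40, 29 to 30, 15 to 18, 1 to 5 and 0, and genes higher over 0, 4 to 6, 20 to 23, 4 to 8 and 36 to 40. With technical replicates only, differences between cultures could not be estimated at any depth.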
